A study of Mus musculus with 6 samples.

Results

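Olfactory bulb and neuroblast genes were followed in the prefrontal cortex of 6 mice. The set held 10 genes. Eomes, Doc2g, Cdhr1 and Tbx21 are known from the projection neurons of the olfactory bulb, Th, Sp8 and Synpr from bulb interneurons, and Dcx, Sox11 and Igfbpl1 from neuroblasts and immature neurons. Every non-control probe that the array files assign to one of these names was taken, which gave 20 probes of 41174, for 10 of 27373 gene names. Of these, 16 probes for 9 genes were well above the local background on at least 3 of the 6 arrays and entered the test, among 30011 probes. Eomes did not enter, since its single probe was well above background on 1 array.

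Total RNA of the whole prefrontal cortex came from 3 male C57BL/6J mice, labelled wild type, and 3 male BTBR T+ Itpr3tf/J mice, all 5 months old and given no drug. BTBR is an inbred strain that lacks a corpus callosum and is used as a model of autism-like behaviour, and it differs from C57BL/6J across the whole genome. The BTBR samples carry BTBR in their title and genotype fields while their strain background field reads C57BL/6J, and they are called BTBR here. Each mouse was hybridised with Cy3-labelled cRNA to 1 one-colour Agilent array of 60-base probes. No label records olfactory bulb or subventricular tissue in any sample.

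The olfactory bulb lies in front of the prefrontal cortex. Its mitral and tufted cells are glutamatergic neurons that receive the axons of the olfactory sensory neurons and project to the olfactory cortex. Its granule and periglomerular cells are inhibitory interneurons, among them periglomerular cells that make dopamine. In the adult mouse new interneurons arise in the subventricular zone, beside the striatum, and move to the bulb as chains of neuroblasts along the rostral migratory stream.

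The probes of Doc2g and Th are shown because they carried some of the widest gaps between one mouse and its strain mates among these genes. Both Doc2g probes cover an exon junction, since 60 bases of probe span 172 and 174 bases of chromosome 19 in mm9, at chr19:4006386-4006557 and chr19:4004599-4004772 on the plus strand. The Th probe lies at chr7:150079917-150079976 on the minus strand of mm9 and was printed on 10 spots of each array.
Doc2g probe A_51_P359137: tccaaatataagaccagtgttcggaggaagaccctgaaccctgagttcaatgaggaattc
Doc2g probe A_52_P475439: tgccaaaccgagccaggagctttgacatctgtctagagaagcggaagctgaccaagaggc
Th probe A_51_P486223: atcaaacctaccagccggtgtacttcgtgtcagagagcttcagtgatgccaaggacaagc

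Promoters of Th and Doc2g are shown as examples from different bulb cell types. Their highest array was the same, as it was for all 9 tested genes. RefSeq promoter windows of GRCm38.p6 (250 bases before to 50 after a transcription start) were found for 9 of the 10 genes, 13 windows in all. They were searched on both strands for 9 short motifs. In the 150 bases before the start of Th, capitals mark the cyclic AMP response element TGACGTCA, whose first base lies 45 bases before the start. Of the 13 windows 1 held it, and 1.79% of all 32851 mouse windows did. In the 150 bases before the start of Doc2g, capitals mark the first 6 bases of the T-box motif, AGGTGT, read on the other strand 31 bases before the start. The letters AGGTGT stood in 13.74% of all windows and in 3 of the 13, those of Doc2g and of both Sp8 windows that hold it. The longer T-box letters AGGTGTGA were in 1.28% of all windows and in 0 of the 13. Such matches describe letters only.
Th promoter, GRCm38.p6 chr7:142899996-142900145, minus strand: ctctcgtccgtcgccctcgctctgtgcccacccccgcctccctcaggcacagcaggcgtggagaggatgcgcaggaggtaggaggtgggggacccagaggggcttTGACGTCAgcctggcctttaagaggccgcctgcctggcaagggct
Doc2g promoter, GRCm38.p6 chr19:4003235-4003384, plus strand: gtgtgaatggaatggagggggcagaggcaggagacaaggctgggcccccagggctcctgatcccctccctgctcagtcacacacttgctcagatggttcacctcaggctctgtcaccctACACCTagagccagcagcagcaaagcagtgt

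All levels below are log2 signals minus the array's own 75th percentile over non-control probes, so a level of 0 equals that percentile and a step of 1 is 2-fold. Between 28101 (BTBR 2) and 30665 (C57BL/6J 3) probes were well above background on an array, and none was saturated. The 75th percentile of signal was lowest on BTBR 2, at 859, and highest on C57BL/6J 1, at 1606.7. The dimmest measurable level was highest on BTBR 2, at -5.83, against -6.92 to -6.59 on the other arrays. How far this raised dim probes on BTBR 2 was not tested. The precision of every value is limited by there being 3 arrays per strain. C57BL/6J 1 and 2 and BTBR 1 and 2 shared one slide and scan, and replicate 3 of each strain shared another. Of 30011 probes, 1632 (5.44%) passed an adjusted p of 0.05 between the strains. The arrays BTBR 2 and C57BL/6J 3 stood apart from their strain mates in markers of tissue next to the cortex. Of 11 tested marker genes of striatal projection neurons, 10 were at least 2-fold above the mean of the other 2 mice on C57BL/6J 3 and 9 on BTBR 2. Over all genes the shares were 2.35% and 2.9%. The list score (defined below) of 4 pituitary genes was highest on BTBR 3 at 4.32 and next on C57BL/6J 3 at 1.83, and that of 3 choroid plexus genes on C57BL/6J 1 at 2.73 and next on BTBR 3 at 0.55. Markers of neighbouring tissue thus varied on arrays of both strains. Strain differences of the bulb genes are therefore given without BTBR 2 and, where they moved by over 1.5 times or changed sign, without C57BL/6J 3. In bulk tissue, more cells of a type and more RNA per cell cannot be told apart.

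Most of these genes stood furthest above strain mates on BTBR 2, but not every one did. Cdhr1 and Sox11 were further above strain mates on C57BL/6J 3 (3.51 and 1.52, log2) than on BTBR 2 (1.65 and 0.92). All 9 tested genes, by their brightest probe, were highest on BTBR 2, where 22.9% of all tested genes were highest. On that array 6 of the 9 were at least 2-fold above the mean of the other 2 BTBR mice, against 2.9% of all genes. These were Doc2g, Cdhr1, Tbx21, Th, Sp8 and Igfbpl1, and the excess ran from 3.14-fold to 7.65-fold, with that of Igfbpl1 an approximate lower bound. Igfbpl1 was well above background on just the 3 arrays the filter asks for, BTBR 2 among them. It thus entered through its level there. All members were chosen with earlier results of these data known, so none of these counts is independent support. On C57BL/6J 3, 3 of the 9 were at least 2-fold above their strain mates (Cdhr1, Sox11 and Igfbpl1), against 2.35% of all genes. Between strains 0 of the 16 probes passed the adjusted test in limma, against 5.44% of all probes, and without BTBR 2 0 of 16 passed, against 3.65%. At an unadjusted p of 0.05, 1 of the 16 passed, Cdhr1, against 16.8% of all probes.

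**Figure D1:**
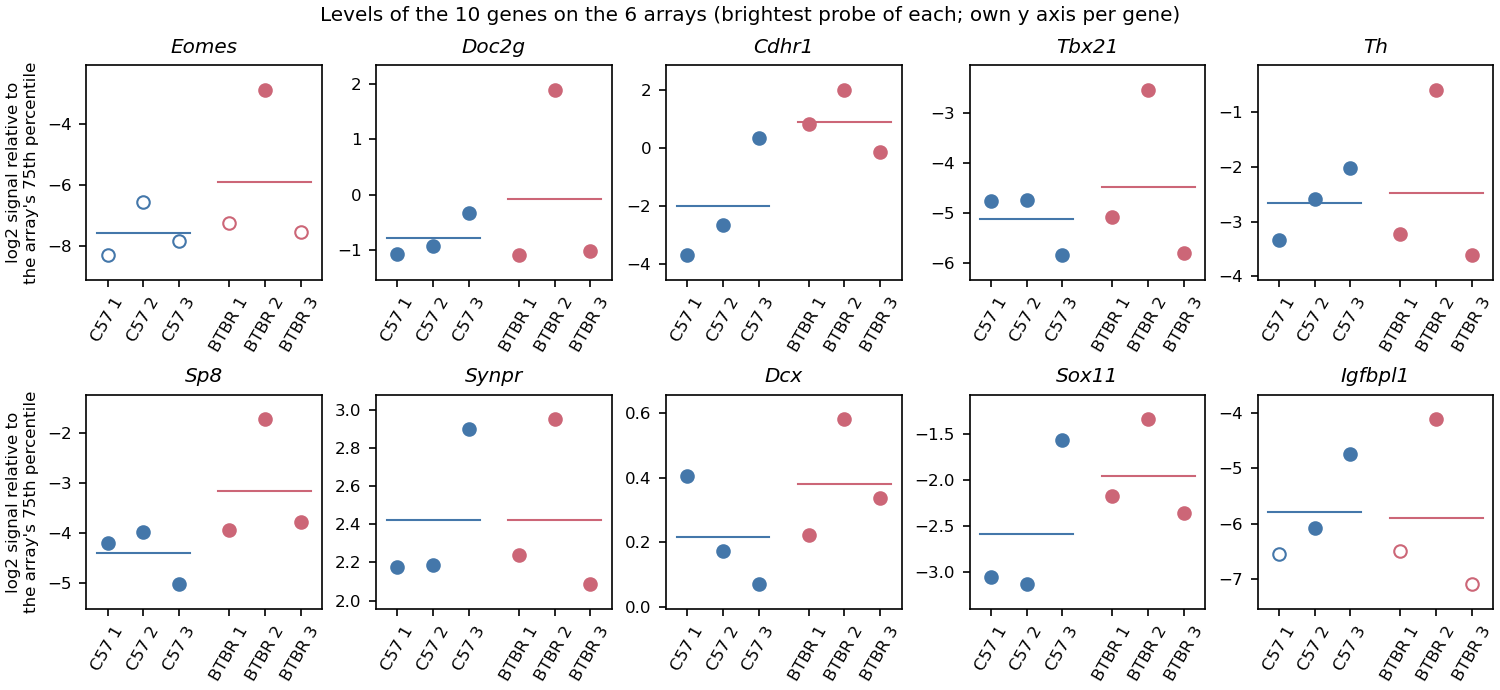
Levels of the 10 genes on the 6 arrays, by the brightest probe of each, as log2 signal relative to the array's 75th percentile (y axes differ between genes). Points are mice, open where the probe was not well above background, and lines are strain means. BTBR 2 is the highest point in all 10 panels, at 1.89 for Doc2g and -2.87 for Eomes.

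Doc2g encodes a C2-domain protein of the double C2 family, which takes part in vesicle release, and is a marker of mitral and tufted cells. Its brighter probe, A_51_P359137, stood at -1.06, -0.93 and -0.32 in C57BL/6J 1 to 3 and at -1.09, 1.89 and -1.003 in BTBR 1 to 3. Only BTBR 2 lay above 0, and the strains overlapped. It was 7.65-fold above the mean of the other BTBR mice, and the second probe, A_52_P475439, gave 8.44-fold. Strain means were -0.77 ± 0.40 (SD, n = 3) in C57BL/6J and -0.07 ± 1.70 in BTBR. The log2 difference of 0.70 ± 0.80 (SE) had an adjusted p of 0.756 in limma. Without BTBR 2 it was -0.28, adjusted p = 0.733.

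Tbx21 encodes T-bet, a T-box transcription factor of mitral and tufted cells that is also known from lymphocytes. Its probe, on the minus strand of chromosome 11, stood at -4.77, -4.74 and -5.85 in C57BL/6J 1 to 3 and at -5.08, -2.54 and -5.80 in BTBR 1 to 3. It was thus a dim gene on 5 arrays and 7.44-fold above its strain mates on BTBR 2. Its levels on C57BL/6J 3 and BTBR 3 were close to -5.83, the dimmest measurable level of BTBR 2, which limits this fold. The strain difference of 0.64 ± 0.83 (SE, log2) had an adjusted p of 0.793, and it was -0.32 without BTBR 2 and 0.28 without C57BL/6J 3. Eomes (Tbr2), a related T-box factor of the same cells and of intermediate progenitors, was not well above background on 5 arrays. On BTBR 2 its probe, at chr9:118394286-118394345 in mm9, was well above background at -2.87. Set on each other array against its dimmest measurable signal (or the Eomes signal itself, if that was brighter), this was at least 14.9-fold above the other BTBR mice. The bound is approximate, since the dimmest measurable signal is that of the whole array and some brighter probes missed it. On BTBR 3 that signal was -6.92, and a Sox11 probe at -6.53 was not well above background. The bound against single arrays ran from 12.9-fold (C57BL/6J 2) to 16.6-fold (BTBR 3).

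Cdhr1 encodes a cadherin-related protein found in photoreceptors and in mitral and tufted cells, and it behaved differently from the other projection neuron genes. Its probe stood at -3.69, -2.64 and 0.35 in C57BL/6J 1 to 3 and at 0.85, 2.01 and -0.13 in BTBR 1 to 3. High levels were thus seen in all BTBR mice and in C57BL/6J 3, which was 3.51 (log2) above its strain mates and overlapped the BTBR range. Strain means were -1.99 ± 2.09 (SD, n = 3) in C57BL/6J and 0.91 ± 1.07 in BTBR. The log2 difference was 2.90 ± 1.07 (SE), with an unadjusted limma p of 0.0326 and an adjusted p of 0.240. Without BTBR 2 it was 2.35, adjusted p = 0.488. Without C57BL/6J 3 it was 4.07 and passed the test, adjusted p = 0.0363. Slide 1 also leaves out C57BL/6J 3, and within it the difference was 4.59 with 2 mice per strain and an adjusted p of 0.0138. Both passes thus rest on leaving out that mouse. On slide 2, with 1 mouse per strain, the difference was -0.48.

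Among the interneuron genes, Th encodes tyrosine hydroxylase, the rate-limiting enzyme of dopamine synthesis, present in periglomerular cells and in axons of midbrain neurons whose cell bodies lie elsewhere. Its level was -3.34, -2.60 and -2.02 in C57BL/6J 1 to 3 and -3.24, -0.59 and -3.62 in BTBR 1 to 3. BTBR 2 was 7.13-fold above its strain mates, and BTBR 1 fell at the low end of the C57BL/6J range and BTBR 3 below it. The strain difference of 0.17 ± 0.81 (SE, log2) had an adjusted p of 0.956. Without BTBR 2 it turned to -0.78, adjusted p = 0.489. Leaving out C57BL/6J 3 gave 0.48, adjusted p = 0.845. Within slide 1 it was 1.05, adjusted p = 0.524, and on slide 2, with 1 mouse per strain, -1.59.

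Sp8 encodes a zinc finger transcription factor that bulb interneurons need for their development. Its level was -4.20, -3.99 and -5.04 in C57BL/6J 1 to 3 and -3.95, -1.72 and -3.79 in BTBR 1 to 3. The strains did not overlap, which held for 2 of the 16 probes and for 22.8% of all probes, and the gap was narrow between C57BL/6J 2 and BTBR 1. BTBR 2 was 4.42-fold above its strain mates. The strain difference of 1.25 ± 0.62 (SE, log2) did not pass the test, adjusted p = 0.398, and without BTBR 2 it was 0.54, adjusted p = 0.578.

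Synpr encodes synaptoporin, a synaptic vesicle protein of granule cells that other forebrain neurons also make. Its spread was the narrowest of the interneuron genes. It stood at 2.18, 2.19 and 2.90 in C57BL/6J 1 to 3 and at 2.24, 2.95 and 2.08 in BTBR 1 to 3. BTBR 2 and C57BL/6J 3 were both high and close to each other, BTBR 2 by 0.79 and C57BL/6J 3 by 0.72 (log2) over their strain mates. To 2 decimals the strain means were equal, at 2.42 ± 0.41 (SD, n = 3) and 2.42 ± 0.46, and the difference was -0.26 without BTBR 2, adjusted p = 0.763. Leaving out C57BL/6J 3 gave 0.24, adjusted p = 0.716. A second Synpr probe was not well above background on any array.

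Dcx encodes doublecortin, a microtubule-binding protein of migrating neuroblasts, and was nearly level across the 6 mice. Its brightest probe, A_52_P244349, stood at 0.41, 0.17 and 0.07 in C57BL/6J 1 to 3 and at 0.22, 0.58 and 0.34 in BTBR 1 to 3. BTBR 2 was 1.23-fold above its strain mates, the smallest excess among the 9 tested genes, and the strains overlapped. The strain difference was 0.16 ± 0.15 (SE, log2), adjusted p = 0.676, and 0.06 without BTBR 2 and 0.09 without C57BL/6J 3. The other 2 Dcx probes gave 0.24 ± 0.24 and 0.32 ± 0.18, adjusted p = 0.705 and 0.450. The latter, A_51_P289097, was the other probe whose strains did not overlap, at -5.20 to -5.11 in C57BL/6J and -5.04 to -4.45 in BTBR.

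Igfbpl1 encodes a protein related to the insulin-like growth factor binding proteins and is found in newborn neurons. Its brighter probe was well above background on C57BL/6J 2, C57BL/6J 3 and BTBR 2, and its other probe on none. Levels were -6.55, -6.09 and -4.75 in C57BL/6J 1 to 3 and -6.49, -4.11 and -7.10 in BTBR 1 to 3. Neither of the other BTBR mice gave a measurable signal, so BTBR 2 was at least 6.02-fold above them, by the same approximate bound as for Eomes. C57BL/6J 3 was 2.97-fold above strain mates of which 1 was measurable. The strain difference of -0.11 ± 0.84 (SE, log2) had an adjusted p of 0.974, and it was -0.9999 without BTBR 2, adjusted p = 0.535. Leaving out C57BL/6J 3 turned it to 0.42, adjusted p = 0.860.

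**Figure D2:**
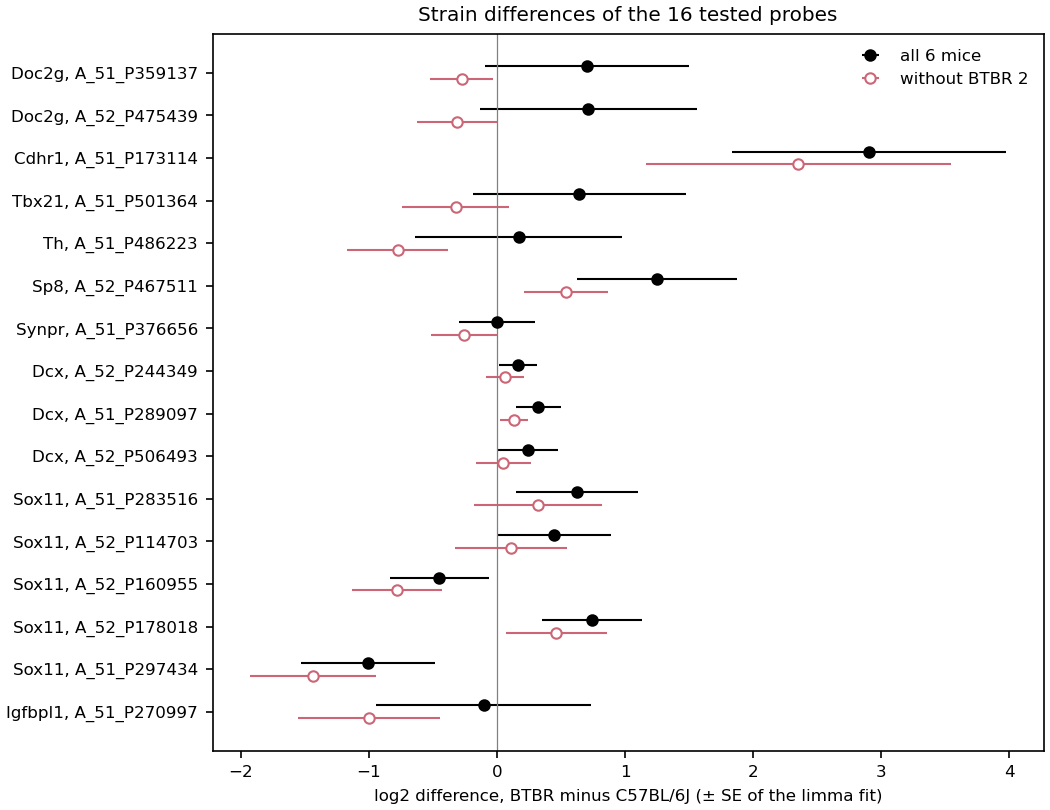
Strain difference of the 16 tested probes (x axis, log2, BTBR minus C57BL/6J) with the standard error of the limma fit, over all 6 mice (filled) and without BTBR 2 (open). Of the 16 probes 13 had the higher mean in BTBR over all mice and 8 without BTBR 2, and Cdhr1 lies farthest to the right at 2.90.

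Sox11 encodes an SRY-related transcription factor of immature neurons and had the most probes, 6, of which 5 were tested. The brightest, A_51_P283516, stood at -3.05, -3.13 and -1.57 in C57BL/6J 1 to 3 and at -2.17, -1.34 and -2.35 in BTBR 1 to 3. C57BL/6J 3 and BTBR 2 were the high mice, 2.87-fold and 1.90-fold above their strain mates. The strain difference of 0.63 ± 0.48 (SE, log2) had an adjusted p of 0.614, and it was 0.32 without BTBR 2. Without C57BL/6J 3 it was 1.13, adjusted p = 0.141, and within slide 1 it was 1.33, adjusted p = 0.0714.

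The probes of Sox11 disagreed in the direction of the strain difference. The most 3′ probe on chromosome 12, A_52_P160955, gave -0.45 ± 0.39 (SE, log2), and A_51_P297434, 522 bases towards the 5′ end, gave -1.01 ± 0.53. A_51_P283516, 3316 bases from the most 3′ probe, gave 0.63, and A_52_P178018, 5842 bases from it, gave 0.74 ± 0.39. The remaining tested probe, A_52_P114703, has no position in the files and gave 0.45 ± 0.45. None passed the test, with adjusted p of 0.421 to 0.717 in limma over these 5 probes. Without BTBR 2 the signs stayed as they were, and A_51_P297434 reached -1.44 with an adjusted p of 0.269. On that probe C57BL/6J 3 was the highest mouse at -2.54 and BTBR 3 the lowest at -5.14, a difference of -2.59 (log2, BTBR minus C57BL/6J) within slide 2. Within slide 1 it was -0.21. Whether the strains differ in sequence under these probes was not tested.

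**Figure D3:**
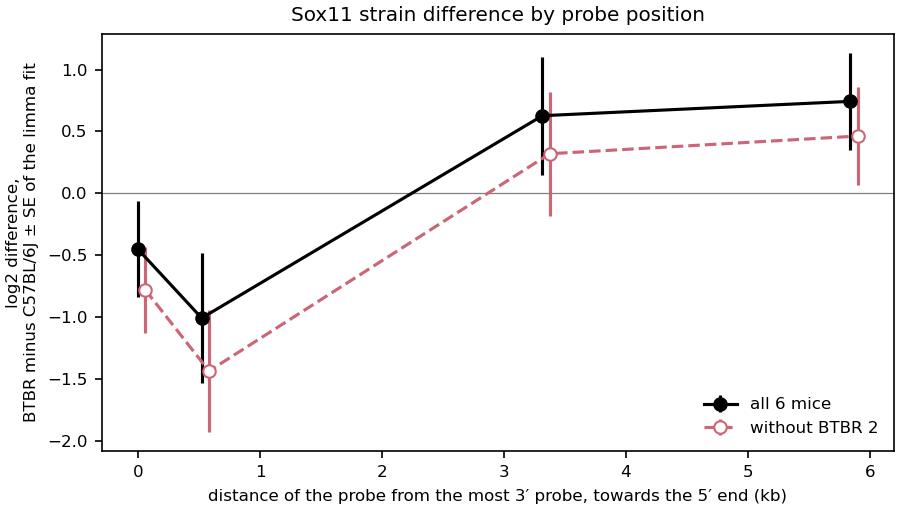
Strain difference of the 4 tested Sox11 probes with a position (y axis, log2, BTBR minus C57BL/6J, ± SE) against the distance from the most 3′ probe in kb, over all 6 mice (filled) and without BTBR 2 (open, drawn slightly to the right). The pair nearest the 3′ end lies below 0, down to -1.01, and the pair beyond 3 kb lies above it, up to 0.74.

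Projection neuron genes were compared with neuroblast genes through a list score, which sets each gene on an array against its own 6-array mean and takes the middle value of the list. The projection neuron score was -0.65, -0.51 and 0.10 in C57BL/6J 1 to 3 and -0.28, 2.31 and -0.58 in BTBR 1 to 3, so BTBR 2 stood alone. The interneuron score was -0.42, -0.21 and 0.48 and then -0.19, 1.97 and -0.34, again with BTBR 2 far above the rest. The neuroblast score was -0.70, -0.24 and 0.70 and then -0.07, 0.93 and -0.08. Here C57BL/6J 3 came close to BTBR 2, and on both arrays the middle value was that of Sox11. On C57BL/6J 3 Dcx differed from strain mates by -0.22 (log2), while Igfbpl1 was 1.57 above them. With the mean over genes the neuroblast score was 0.52 on C57BL/6J 3 and 0.98 on BTBR 2. With the mean over all tested probes of a gene it was 0.79 and 0.71. Each score rests on 3 genes, so each value is that of a single gene. No test was made of the differences between scores.

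The position of BTBR 2 and C57BL/6J 3 was followed under other scalings. With quantile normalization or scaling to a median, 9 of the 9 genes were again highest on BTBR 2, with 6 at least 2-fold above strain mates there and 3 on C57BL/6J 3. With normexp background correction 7 of the 9 were highest on BTBR 2 (Tbx21 and Igfbpl1 were then highest on C57BL/6J 1) and 6 were at least 2-fold above strain mates there, with 1 (Cdhr1) on C57BL/6J 3. The neuroblast score of C57BL/6J 3 was -0.21 with normexp, against 0.59 on BTBR 2, and the projection neuron score of BTBR 2 was 2.07. In the authors' deposited values all 9 were highest on BTBR 2, but 3 were at least 2-fold above strain mates (Doc2g, Cdhr1 and Th), with 1 (Cdhr1) on C57BL/6J 3. There the excess of Igfbpl1 was 0.29 (log2) and that of Tbx21 0.74.

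**Figure D4:**
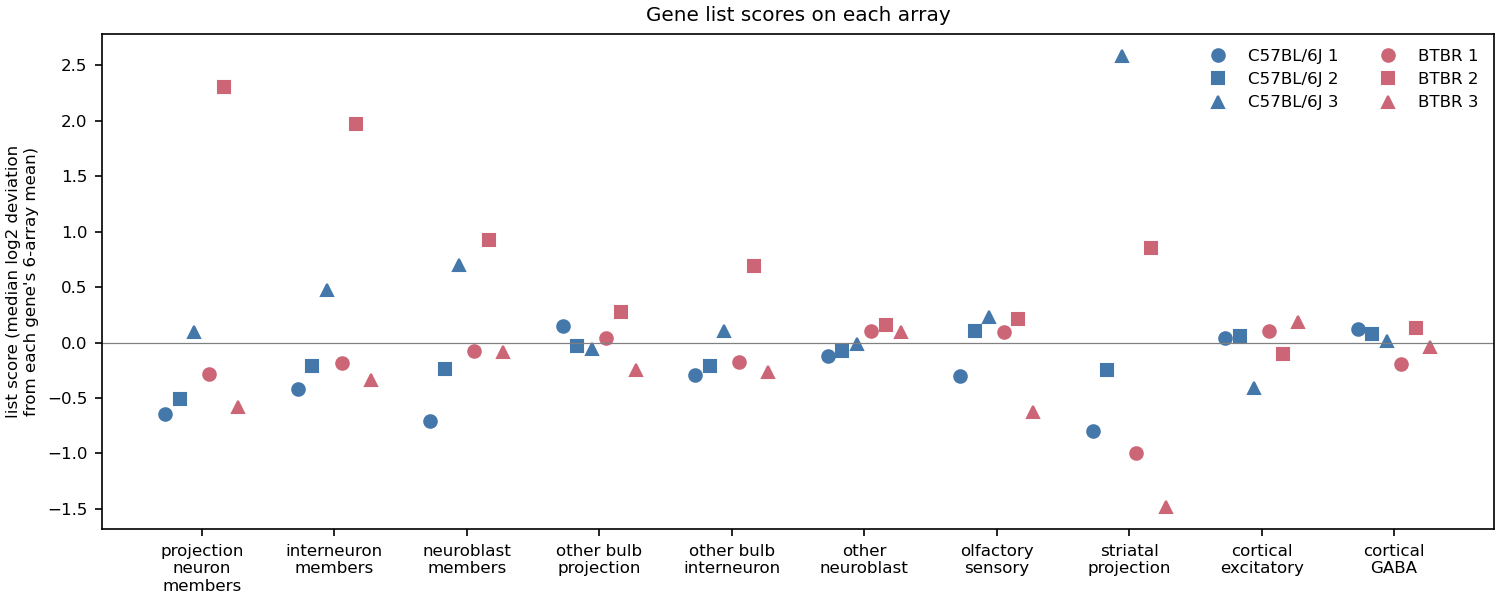
List scores on each array (y axis, median log2 deviation from each gene's mean over 6 arrays) for the 3 lists of the 10 genes and for 7 other lists. Each symbol is 1 mouse. BTBR 2 is at 2.31 in the projection neuron list and 0.28 in the list of other bulb projection neuron genes, while C57BL/6J 3 is at 2.58 in the striatal list.

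Other genes of the same cell types were read against the same shares, in lists also chosen with earlier results of these data known. Of 12 further bulb projection neuron genes 10 were tested, 3 of them were highest on BTBR 2 (22.9% of all genes) and 2 were at least 2-fold above strain mates there (2.9% of all genes). Those were Shisa3, at least 10.1-fold by an approximate bound, and Nmb (neuromedin B), 3.94-fold, both named after their values were seen. Shisa3 was not a clean contrast, since its level of -2.41 on BTBR 2 lay close to the C57BL/6J levels of -3.80 to -3.42, and BTBR 1 and BTBR 3 lay below these at -6.77 and -4.89. Tbr1, a T-box factor of mitral cells and of deep-layer cortical neurons, was 0.26 (log2) lower on BTBR 2 than on its strain mates. Of these 10 genes 0 passed the strain test, against 5.44% of all probes. The smallest p were those of Slc17a6, the vesicular glutamate transporter VGLUT2 (log2 difference -0.97, adjusted p = 0.188), Reln (0.39, 0.307) and Pde5a (0.49, 0.508). The list's median difference was 0.15, against 0.02 over all genes.

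Of 14 further bulb interneuron genes 12 were tested, and 8 of these were highest on BTBR 2, against 22.9% of all genes. At least 2-fold above strain mates there were 4 of the 12, against 2.9% of all genes, all named after their values were seen. Trh, thyrotropin-releasing hormone, was at 8.36-fold, Calb2 (calretinin) at 2.98-fold, Meis2 at 2.36-fold and Gng4 at 2.13-fold. Trh stood at -4.72, -3.69 and -2.84 in C57BL/6J 1 to 3 and at -4.67, -1.85 and -5.15 in BTBR 1 to 3. On C57BL/6J 3, 4 of the 12 were at least 2-fold high, against 2.35% of all genes. They were Dlx5, Dlx6, Meis2 and Trh, and these homeobox genes and Trh are also made by other forebrain cells. Between strains 0 of 12 passed, against 5.44% of all probes, with Dlx1 (0.80, adjusted p = 0.304), Dlx2 (0.56, 0.313) and Calb2 (0.58, 0.619) having the smallest p. The list's median difference was 0.10 and -0.16 without BTBR 2.

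Among 15 other neuroblast and immature neuron genes, all tested, 7 were highest on BTBR 2 (22.9% of all genes) and 1 was at least 2-fold above strain mates there (2.9%). That gene was Prokr2, a receptor of the prokineticins that guide neuroblasts to the bulb, at 2.01-fold, named after its value was seen. The score of this list spanned -0.12 to 0.15 over the 6 arrays. None of the 15 passed the strain test, against 5.44% of all probes. Dpysl3 (0.44, adjusted p = 0.143), Tubb2b (0.26, 0.296) and Cd24a (0.37, 0.475) had the smallest p. Genes of dividing cells could be tested for 3 of 7, and all 3 were highest on BTBR 2, a count too small to set against 22.9% of all genes. Bub1 was 2.71-fold above strain mates there, but its level of -1.78 lay close to those of C57BL/6J 1 and 2 at -1.83 and -1.89. Mki67, the Ki-67 proliferation marker, had the smallest p of these (0.71, adjusted p = 0.324), ahead of Birc5 (0.19, 0.682).

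Of 6 tested further T-box genes 0 were highest on BTBR 2 and 0 were at least 2-fold above strain mates there, counts too small to set against 22.9% and 2.9% of all genes. Tbx1 came nearest to the strain threshold (log2 difference 0.78, adjusted p = 0.0561), followed by Tbx15 (0.37, 0.298) and Tbx2 (-0.13, 0.762). Of 11 tested genes of catecholamine synthesis and transport, 3 were highest on BTBR 2, a share near the 22.9% of all genes, and 2 were at least 2-fold above strain mates (2.9% of all genes). These were Slc6a3, the plasma membrane dopamine transporter, at 10.9-fold, and Nr4a2 (Nurr1), a transcription factor of dopamine neurons and of deep cortical neurons, at 3.14-fold, both named after their values were seen. Slc6a3 stood at -5.76, -4.47 and -3.72 in C57BL/6J 1 to 3 and at -5.01, -1.94 and -5.76 in BTBR 1 to 3, with the same highest and second highest arrays as Th. Nr4a2 was highest on C57BL/6J 3, at 2.95 against 2.57 on BTBR 2. Ddc, the next enzyme after Th in dopamine synthesis, was 1.11-fold above strain mates. In this list 0 of 11 passed the strain test, against 5.44% of all probes. Qdpr (-0.20, adjusted p = 0.483), Gch1 (0.29, 0.628) and Pnmt (0.38, 0.635) had the smallest p.

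Markers of tissue that could lie beside the dissected cortex varied from gene to gene on these arrays. Of 7 tested olfactory sensory neuron genes 3 were at least 2-fold above strain mates on BTBR 2, against 2.9% of all genes. They were the mature-neuron protein Omp at 2.76-fold, Gnal at 2.77-fold and the chloride channel Ano2 at 4.66-fold. Gnal and Ano2 were also high on C57BL/6J 3, and Gnal is made by striatal neurons too. Omp was dim throughout, at -6.49 to -4.39, and not well above background on BTBR 3. The list score of sensory neurons ran from -0.30 to 0.23 in C57BL/6J and from -0.63 to 0.21 in BTBR. Of 7 ensheathing glia genes 2 were at least 2-fold above strain mates on BTBR 2, against 2.9% of all genes. They were Prss56 at 3.11-fold and Fabp7 at 3.12-fold, and Prss56 was also 1.55 (log2) high on C57BL/6J 3. Others of the list were lower on BTBR 2 than on strain mates, Mybpc1 by a log2 difference of -0.65, Sox10 by -0.38 and Npy by -0.33, and the list score there was -0.07. The smallest p in these lists were those of Gng13 (0.30, adjusted p = 0.403), Cnga2 (0.23, 0.515) and Ano2 (-1.24, 0.620), and of Sox10 (-0.56, 0.236), Prss56 (1.59, 0.278) and Frzb (-0.34, 0.305).

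The striatal list score was -0.80, -0.25 and 2.58 in C57BL/6J 1 to 3 and -0.99, 0.85 and -1.48 in BTBR 1 to 3. By list score the 2 highest arrays were the same as for the bulb lists, in the reverse order. The bulb genes were not high as a set on C57BL/6J 3. Its projection neuron score was 0.099 and its interneuron score 0.48, against 2.31 and 1.97 on BTBR 2. Cdhr1, Th, Synpr and Doc2g were above strain mates on C57BL/6J 3, by 3.51, 0.94, 0.72 and 0.68 (log2). Tbx21 and Sp8 were at their lowest there, at -5.85 and -5.04, and Tbx21 was near that level on BTBR 3 at -5.80. In the striatal list Rxrg (log2 difference -1.57, adjusted p = 0.591), Penk (-1.26, 0.601) and Ppp1r1b (-0.98, 0.643) had the smallest p. Penk was 2.22 (log2) above its strain mates on BTBR 2 and 2.74 on C57BL/6J 3. The cortical excitatory list was lowest on C57BL/6J 3 at -0.41 and next lowest on BTBR 2 at -0.11, with 0.04 to 0.18 on the other 4 arrays. Its vesicular glutamate transporter gene Slc17a7 stood at 2.79 on BTBR 2 and 2.99 on C57BL/6J 3, against 3.26 to 3.73 on the rest. The list did not move as a whole. Foxp2 and Tle4 were above strain mates on both arrays, by 1.03 and 0.27 (log2) on BTBR 2 and by 1.37 and 0.50 on C57BL/6J 3. The part of olfactory bulb, striatal or migratory stream tissue in the values of BTBR 2 and C57BL/6J 3 was not tested.

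Genes outside the set were ranked by Pearson's r with each score over the 6 arrays, as a description, among 2903 named genes spanning at least 1 (log2). The points are 6 arrays, and for the projection neuron score BTBR 2 alone sets most of the spread. The 8 most like that score were Vipr2 (r = 0.990), Nvl (0.986), Calb2 (0.984), Gng4 (0.984), Rif1 (0.982), Nell2 (0.980), Sp7 (0.979) and Gnrh1 (0.978). Vipr2, a receptor of vasoactive intestinal peptide, went from between -3.86 and -2.88 on 5 arrays to 0.13 on BTBR 2. Nell2, a secreted glycoprotein, went from 3.25 to 3.402 on 5 arrays to 4.43 on BTBR 2. The 8 most like the neuroblast score were Col6a1 (0.982), Dio3 (0.976), Gnb4 (0.973), Sowaha (0.965), Papss2 (0.953), Amotl1 (0.953), Cacng5 (0.952) and Dlx6os1 (0.951). These were high on C57BL/6J 3 as well. Gnb4, a G protein beta subunit, stood at 0.90 there and at 0.94 on BTBR 2, against -1.17 to 0.04 on the other arrays. Dio3, which inactivates thyroid hormone, stood at -2.77 and -2.35 there, against -4.46 to -3.36. With deviations taken from each strain's own mean, 3 of the 8 and 1 of the 8 stayed among the first 8.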

How the data were processed

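The deposited scanner files hold intensity values, 1 line per spot, made by the scanner software Feature Extraction. Its version is 10.7.3.1 per the file headers and 9.1 per the submitters' processing notes. The authors' deposited matrix holds log2 values on a scale that no label or header states. It served as an alternative, with medians of 8.82 to 8.83 and correlations of 0.915 to 0.929 with the scanner's log2 signal. Here log2 of the background-subtracted signal was averaged over a probe's spots, without outlier-flagged ones where others existed, and each array's 75th percentile was subtracted. Probes well above background on at least 3 arrays were fitted with limma 3.58.1 (R 4.3.3), as BTBR minus C57BL/6J. P-values were adjusted by Benjamini-Hochberg over 30011 probes, with a threshold of 0.05. On simulated data the fit was tested on known changes. The design gives 3 mice per group. A p-value sets the strain difference against the spread between mice, which limma moderates over all tested probes.

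Members and gene lists were chosen with earlier results of these data known. The named genes are all members, from each other list up to 3 genes with the smallest p, and 8 genes most like each score. Further list genes were named after their values were seen, for their level on BTBR 2 or C57BL/6J 3 or for their known role. Lists covered cell types of the bulb, cortex and neighbouring tissue. Of the lists whose strain test is not given above, GABA neurons (7 tested), choroid plexus (3 tested) and pituitary (4 tested) had 0 calls. Astrocytes had 1 lower (Gfap), oligodendrocytes 1 lower (Mag) and microglia 1 higher (Cx3cr1). Over all probes 5.44% were called. A gene symbol was taken from RefSeq accessions where they matched. Positions are mm9, per the file headers. Mice with the same replicate number were treated as unpaired. Correlations of their deviations were 0.03, -0.17 and -0.08, which cannot show whether they were paired, since each rests on 1 pair of mice.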

Additional observations from a re-analysis of the deposited data

Results flagged for a closer look

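The Eomes probe stayed out of the strain test because it was well above background on 1 of 6 arrays, yet on that array, BTBR 2, it stood at -2.87 on the log2 scale relative to the array's 75th percentile. It was not well above background in any C57BL/6J mouse.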

How the results depend on the processing

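The precision is that of 3 mice per strain, and signals near background limit Eomes, Igfbpl1 and Tbx21. Over all probes 1632 passed. The count was 170 with normexp, 1083 with 1 row per gene name, 3928 with array weights (whose fit did not converge), and 858 to 1472 with 1 mouse left out (1094 without BTBR 2). With the replicate number as a block it was 922, and 0 bulb or neuroblast probes passed. The count of these probes that passed was 1 (Cdhr1) with array weights, within slide 1 and without C57BL/6J 3, and 0 under the other alternatives, so 0 to 1 with 1 mouse left out. The untested strain differences of the 3 scores changed sign without BTBR 2, the projection neuron score from 0.83 to -0.09, the interneuron score from 0.53 to -0.37 and the neuroblast score from 0.34 to -0.11. With 1 mouse left out they ran up to 1.32, 0.86 and 0.64, and these moves lie within a spread between mice that BTBR 2 itself widens. Of 170 alternative strain differences of single genes, 151 kept direction and call, and the 16 that reversed were all uncalled. They were Tbx21 (-0.023) and Th (-0.10) with normexp, Synpr with median scaling (-0.017), Igfbpl1 in the authors' values (0.0013) and within slide 1 (1.02), and Th with array weights (-0.20). The other 10 came from leaving out 1 mouse, which gave ranges of -0.28 to 1.21 for Doc2g, -0.32 to 1.30 for Tbx21, -0.78 to 0.74 for Th, -0.26 to 0.24 for Synpr and -0.9999 to 0.50 for Igfbpl1. The lowest of each was the value without BTBR 2. Of 216 single-array scores 213 stayed within their spread, and the neuroblast scores of C57BL/6J 1 (0.15) and C57BL/6J 3 (-0.21) with normexp and the interneuron score of BTBR 2 (0.88) in the authors' values did not. Of the 8 genes most like each score, 3 and 1 stayed with deviations from each strain's mean. The causes were not tested.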
